A study of Mus musculus with 2 samples.

Results

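The genes described here copy DNA and supply the nucleotides for it: 39 genes for the helicase that opens DNA and the factors that load it, the polymerases, the sliding clamp and its loader, the enzymes that join new fragments, the enzymes of deoxynucleotide supply, and regulators of S phase entry. They were chosen by name, and all 39 had a probe on the array, 4 of them under an older symbol. Of these, 36 were measured, out of 9397 genes measured in all. A gene counted as measured if, for either genotype, its signal was well above background on array 1 and on array 2, and the brightest probe that met this stood for the gene. The tissue was thymus of 6-month-old Pla2g10-Tg/+ mice, which overexpress the group X secreted phospholipase A2 gene per the labels, and of their littermate controls, both on a C57BL/6 background and fed the same standard diet. Each genotype was represented by 1 pool of RNA from 4 mice, and the pools were set against each other on 2 arrays, with the dyes exchanged on the second. The transgenic pool carried the red dye on array 1 and the green dye on array 2. The labels name neither the promoter nor the tissue range of the transgene.

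Before S phase the origin recognition complex, Cdc6 and Cdt1 load rings of the minichromosome maintenance proteins Mcm2 through Mcm7 onto DNA. Cdc45 and the GINS complex then turn each ring into an active helicase. Polymerase alpha with its primase, polymerase delta and polymerase epsilon copy the opened strands. In the thymus, early thymocytes divide fast once they have passed selection for a working T cell receptor beta chain, and then become small double-positive cells of which most no longer divide. Many genes of this machinery are under E2F transcription factors, which act at the start of S phase.

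Each value below is a log2 ratio of transgenic over control on each array, or the mean of those values ± their SD (n = 2 arrays, 1 pool per genotype). That SD covers technical spread only, and no difference could be tested across animals. The call rule took a gene whose arrays had 1 sign and whose mean reached 0.25 in either direction, a 1.19-fold difference. It is a rule of size and not a test, and lower or higher below refers to it or to the sign on both arrays, as stated. Of the 36 measured genes 34 were well above background in all 4 channels, and none of the channels was saturated. Their signal over local background ran between 19.1 and 5290 units. The single probe for the transgene's own gene, Pla2g10 (mm8 chr16:13628751-13628810), was well above background in 0 of 4 channels, with log2 ratios of -0.06 and -0.02, so these arrays gave no check of the genotype labels, and the labels do not say whether the transgene's transcript holds the probe's sequence. Genes of the labelled tissue were present: 13 of 14 immature thymocyte markers were measured, all but Rag2, as were 7 of 8 thymic epithelial markers, all but Foxn1.

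E2F-type words, which the choice of genes by name did not use, stood in the promoters of a minority of these genes, though in a larger share than over all genes. Promoter windows of 250 bases before to 50 after the transcription start (RefSeq, GRCm38.p6) were given for 32 of the 39 genes and were searched on both strands for 4 E2F-type words, TTTGGCGC, TTTCCCGC, TTTGCCGC and TTTCGCGC. A word and the reverse complement of another can overlap, and a gene counted once however many it held. At least 1 word stood in a window of 12 of the 32 genes (37.5%), against 2.6% of 27025 genes with a window and 5.06% of the 6784 measured genes with one. For helicase and loading genes the count was 7 of 11, and for nucleotide supply genes 0 of 6. The word CCAAT stood in windows of 56.2% of the 32 genes, and of 41.1% of all genes with a window. The windows of 5 genes are printed from 5′ to 3′ with the E2F-type words in capitals: 3 helicase or loading genes that hold such words, then Mcm10 and Rrm1, the lowest and the highest log2 ratio among the measured genes, which hold none.
Mcm5 (chr8:75109259-75109558, plus strand): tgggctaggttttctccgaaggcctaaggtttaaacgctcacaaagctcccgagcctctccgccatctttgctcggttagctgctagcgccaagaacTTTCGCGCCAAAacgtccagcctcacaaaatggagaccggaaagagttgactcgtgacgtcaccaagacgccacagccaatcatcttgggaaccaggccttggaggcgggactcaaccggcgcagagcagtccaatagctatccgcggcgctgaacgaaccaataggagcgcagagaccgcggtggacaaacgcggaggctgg
Mcm6 (chr1:128359656-128359955, minus strand): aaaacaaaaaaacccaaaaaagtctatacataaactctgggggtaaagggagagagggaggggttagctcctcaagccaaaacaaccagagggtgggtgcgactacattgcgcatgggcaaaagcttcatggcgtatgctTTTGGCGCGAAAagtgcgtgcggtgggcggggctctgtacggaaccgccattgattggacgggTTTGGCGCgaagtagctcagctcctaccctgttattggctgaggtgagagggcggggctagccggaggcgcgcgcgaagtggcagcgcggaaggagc
Cdc6 (chr11:98907901-98908200, plus strand): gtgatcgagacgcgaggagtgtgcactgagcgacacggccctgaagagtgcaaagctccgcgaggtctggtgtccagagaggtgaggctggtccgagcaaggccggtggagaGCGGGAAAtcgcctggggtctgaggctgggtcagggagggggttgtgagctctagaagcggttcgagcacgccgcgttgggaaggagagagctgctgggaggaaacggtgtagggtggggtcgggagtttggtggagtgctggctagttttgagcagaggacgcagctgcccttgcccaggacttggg
Mcm10 (chr2:5012742-5013041, minus strand): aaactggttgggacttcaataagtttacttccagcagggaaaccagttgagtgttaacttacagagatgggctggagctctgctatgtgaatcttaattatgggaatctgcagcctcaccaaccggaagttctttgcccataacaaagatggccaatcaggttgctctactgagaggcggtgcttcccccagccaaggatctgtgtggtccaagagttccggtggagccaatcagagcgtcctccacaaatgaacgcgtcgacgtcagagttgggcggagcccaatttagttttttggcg
Rrm1 (chr7:102441445-102441744, plus strand): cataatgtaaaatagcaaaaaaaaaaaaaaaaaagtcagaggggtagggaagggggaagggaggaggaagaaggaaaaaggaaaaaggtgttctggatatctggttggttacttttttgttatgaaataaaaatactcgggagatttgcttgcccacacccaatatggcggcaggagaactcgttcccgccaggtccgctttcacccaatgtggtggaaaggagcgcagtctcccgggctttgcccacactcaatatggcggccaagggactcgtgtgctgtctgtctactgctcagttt

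In Mcm5 the words TTTCGCGC and GCGCCAAA overlap, starting 153 and 149 bases before the transcription start. In Mcm6 another such overlapping pair starts 110 and 106 bases before it and a further TTTGGCGC starts 47 bases before it, while Cdc6 holds a single GCGGGAAA, which starts 138 bases before it. The median log2 ratio was -0.09 over 11 measured genes with a word (-0.18 to 0.01) and -0.07 over 19 without (-0.25 to 0.13). A word stood in windows of 14 of 37 other replication genes (37.8%), 2 of 31 other nucleotide synthesis genes and 1 of 14 mitosis genes. A match describes the letters in the window and is not evidence of a bound site. A word that crosses the window's edge is missed: the Mcm10 window ends in tttggcg, which is TTTGGCGC without its last letter, and the next base was not read. CCAAT stood in windows of 13 of those 14 mitosis genes.

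**Figure D1:**
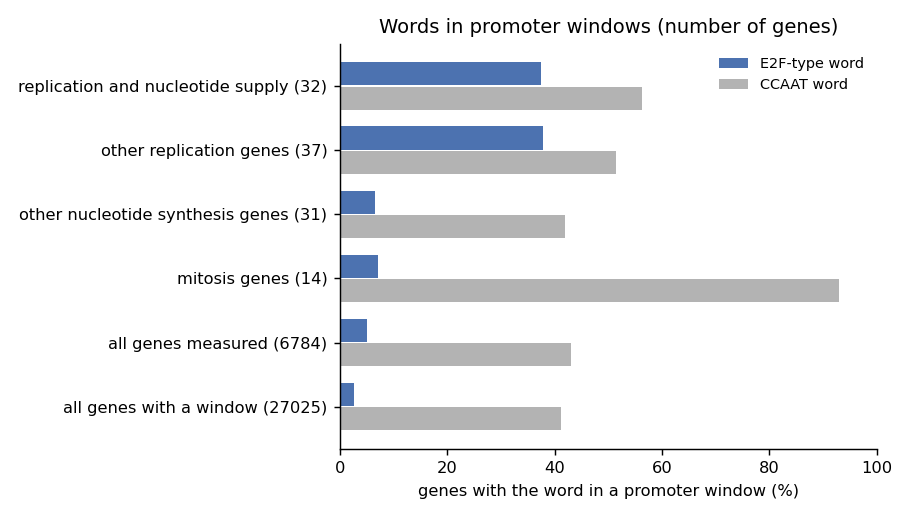
Share of genes, in percent, with an E2F-type word (blue) or the word CCAAT (grey) in a promoter window, for 6 sets of genes with the number of genes in brackets. E2F-type words stand in 37.5% of the replication and nucleotide supply genes and 37.8% of other replication genes, against 2.6% of all genes with a window.

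None of the 36 measured replication and nucleotide supply genes passed the call rule between the transgenic and the control thymus. The median log2 ratio of the 36 genes was -0.07, against -0.0023 over all genes measured. It was -0.07 on array 1, against 0.01 over all genes, and -0.04 on array 2, against -0.01 over all genes. The single genes ran between -0.248 (Mcm10) and 0.13 (Rrm1). The call rule took 0 of the 36 as lower, where it took 2.83% of all genes, and 0 as higher, where it took 3.68%. Below 0 on both arrays were 16 of the 36 (44.4%), against 29.1% of all genes, and above 0 on both were 3 (8.33%), against 28.3% of all genes. The other 17 (47.2%) had opposite signs on the arrays, against 42.6% of all genes. With each array centred on its median in place of loess, 1 of the 36 was below 0 on both arrays (2.78%), against 4.46% of all genes, and 0 were above 0, against 2.08% of all genes. Both values of the transgenic pool lay below both of the control pool for 14 of the 36 (38.9%), against 24.0% of all genes, and above both for Prim2 and Rrm1 (5.56%), against 23.0% of all genes. Among genes well above background in all 4 channels the shares were much the same, at 15 of 34 lower, against 28.5% of all such genes, and 3 of 34 higher, against 27.8%. In the plot by function most of the 36 means lie left of 0 but inside the call threshold.

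**Figure D2:**
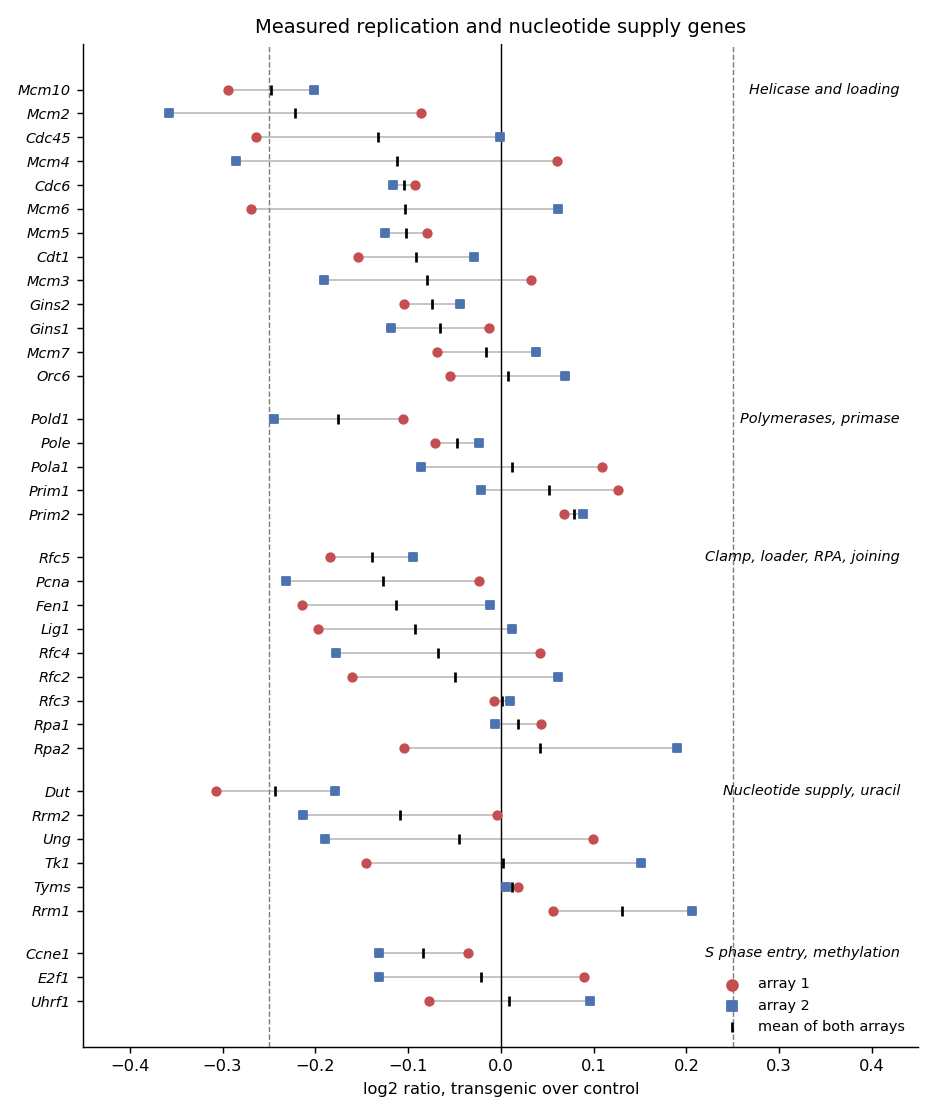
Log2 ratio of transgenic over control for the 36 measured genes, grouped by function, on array 1 (red circles) and array 2 (blue squares), with the mean as a black tick. Dashed lines mark the call threshold of 0.25 in size, which no mean passes. Of the 36 means 25 lie below 0, against 4767 of 9397 over all genes measured.

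In the same pools most measured markers of immature thymocytes were lower, and most of those of several other cell types were higher. In bulk RNA fewer cells of a type and less RNA per cell cannot be told apart. The call rule took 8 of 13 immature thymocyte markers as lower, against 2.83% of all genes, and their median was -0.30. Their summed normalised level was 23770 and 23830 in the transgenic pool on arrays 1 and 2, against 30240 and 30600 in the control pool. Cd8a was at -0.51 ± 0.00 on its brightest probe, while its other measured probes read -0.56 and -0.19, and Ccr9 was at -0.53 ± 0.10. Cd3e was at -0.01 ± 0.10 with opposite signs on the arrays. Cd1d1 was at 0.03 ± 0.03, with 397 and 386 in the transgenic pool, against 384 and 385 in the control pool. Cd4 was at 0.02 ± 0.00 on a dim probe, and the offset shrinks ratios of dim probes. The Cd4 probe read 80.4 and 80.5 in the transgenic pool, against 79.1 and 79.1 in the control pool. The summed level of 5 measured adipocyte markers was 1674 and 1615 in the transgenic pool, against 968.5 and 917.8 in the control pool, although Adipoq, Plin1, Lep and Retn were not measured. Most of that sum was Fabp4, at 1139 and 1130 in the transgenic pool, against 679 and 647 in the control pool. All 5 were called higher, against 3.68% of all genes. For 3 measured erythroid markers, all called higher, the summed level was 5019 and 5786 in the transgenic pool, against 2663 and 2455 in the control pool, with no probe found for Hbb-b1. Most of it was Hbb-bt, at 3765 and 4382, against 1900 and 1700 in the control pool. For 5 neutrophil granule markers the summed level was 1510 and 1375 in the transgenic pool, against 1065 and 1002 in the control pool, with Elane and Ngp not measured. Most of it was S100a9, at 1046 and 935, against 686 and 608 in the control pool. Of the 5 markers 3 were called higher, while Ltf (0.13 ± 0.02) and Mpo (0.01 ± 0.04) were not. The part of these cell types in the values of the replication genes was not tested. By the mean of both arrays the lowest thymocyte marker was Ccr9 at -0.53 and the lowest replication gene Mcm10 at -0.248. In the plot of the single arrays Ccr9 reaches -0.60 on array 1 and Mcm2 reaches -0.36 on array 2.

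**Figure D3:**
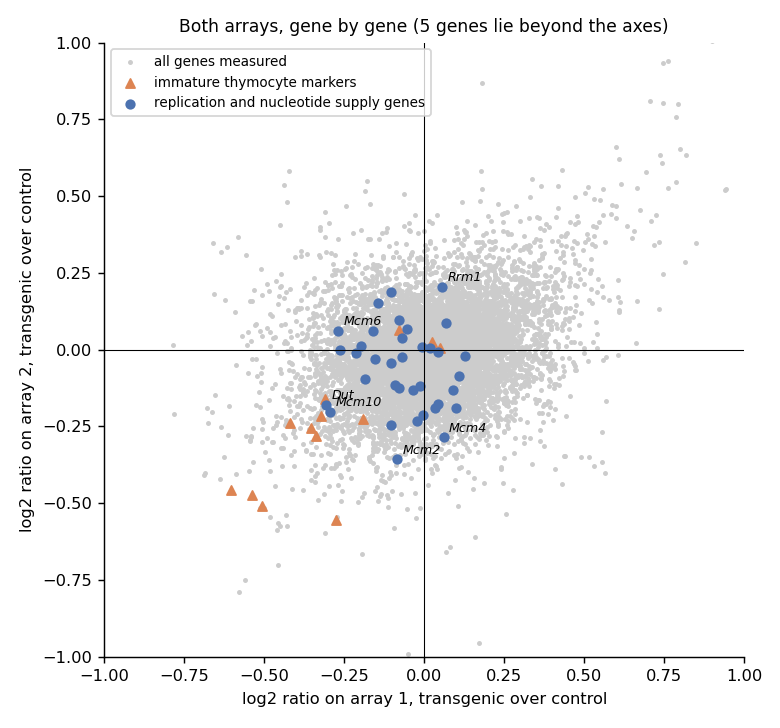
Log2 ratio of transgenic over control on array 1 (horizontal) and array 2 (vertical) for all 9397 genes measured (grey), immature thymocyte markers (orange triangles) and the 36 replication and nucleotide supply genes (blue). The blue points lie around the origin with most below 0 on 1 or both axes. By their means 8 thymocyte markers pass the call rule, and 5 genes fall beyond the axes.

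Helicase and loading genes had the lowest median of the 5 functional groups. Their median was -0.10 over 13 measured genes. Of their means 12 of 13 lay below 0, against 4767 of 9397 over all genes measured. Below 0 on both arrays were 8 of 13 (61.5%), against 29.1% of all genes. Mcm10, which couples the active helicase to polymerase alpha, had a normalised intensity of 229 and 227 in the transgenic pool on arrays 1 and 2, against 280 and 261 in the control pool, so both transgenic values lay below both control values. Its log2 ratio was -0.29 on array 1 and -0.20 on array 2, with a mean of -0.248 ± 0.07, just short of the call threshold. Its probe lies on mm8 at chr2:4908071-4908130.

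The 6 ring subunits all had means below 0, from -0.22 to -0.02, against 4767 of 9397 below 0 over all genes measured. However, 4 of the 6 (66.7%) had opposite signs on the arrays, against 42.6% of all genes. Mcm2 read 284 and 265 in the transgenic pool on arrays 1 and 2, against 302 and 339 in the control pool, without overlap, and its log2 ratio was -0.22 ± 0.19 (probe on mm8 at chr6:88849266-88849325). Mcm6, the brightest of the group's probes, read 2070 and 2327 in the transgenic pool, against 2495 and 2229 in the control pool. The Mcm6 values overlapped, since array 1 gave -0.27 and array 2 gave 0.06. Mcm4 went the other way, with 0.06 on array 1 and -0.29 on array 2. Mcm5 was at -0.10 ± 0.03, with both arrays below 0, while Mcm3 (-0.08 ± 0.16) and Mcm7 (-0.02 ± 0.08) had opposite signs on the arrays. The second probe of Mcm3 read -0.15. Mcm2 and Mcm5 were the members of the ring that lay below 0 on both arrays (33.3%), a share near the 29.1% of all genes.

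The other factors around the ring had means from -0.13 to 0.01. Those of the dimmest probes depend on the offset: with an offset of 0 and in the scanner software's log ratios Cdc45 was at -0.37 and -0.38, Cdc6 at -0.22 and -0.30, and Gins2 at -0.16 and -0.21. As normalised here, Cdc6 and Cdt1, which place the ring on DNA, were at -0.10 ± 0.02 and -0.09 ± 0.09. Cdc45, which joins the ring in the active helicase, had a dim probe that was well above background in 3 of 4 channels. It read 70.1 and 71.4 in the transgenic pool, against 84.2 and 71.4 in the control pool. The log2 ratio of Cdc45 was -0.26 on array 1 and -0.0008 on array 2, so its low mean (-0.13 ± 0.19) rests on array 1. The GINS subunit genes Gins1 and Gins2 were at -0.07 ± 0.07 and -0.07 ± 0.04, and the second probe of Gins1 read 0.0016. Orc6, a subunit of the origin recognition complex, was at 0.01 ± 0.09. Orc1, which encodes another subunit of that complex, was not measured, with 0 of 4 channels well above background.

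**Figure D4:**
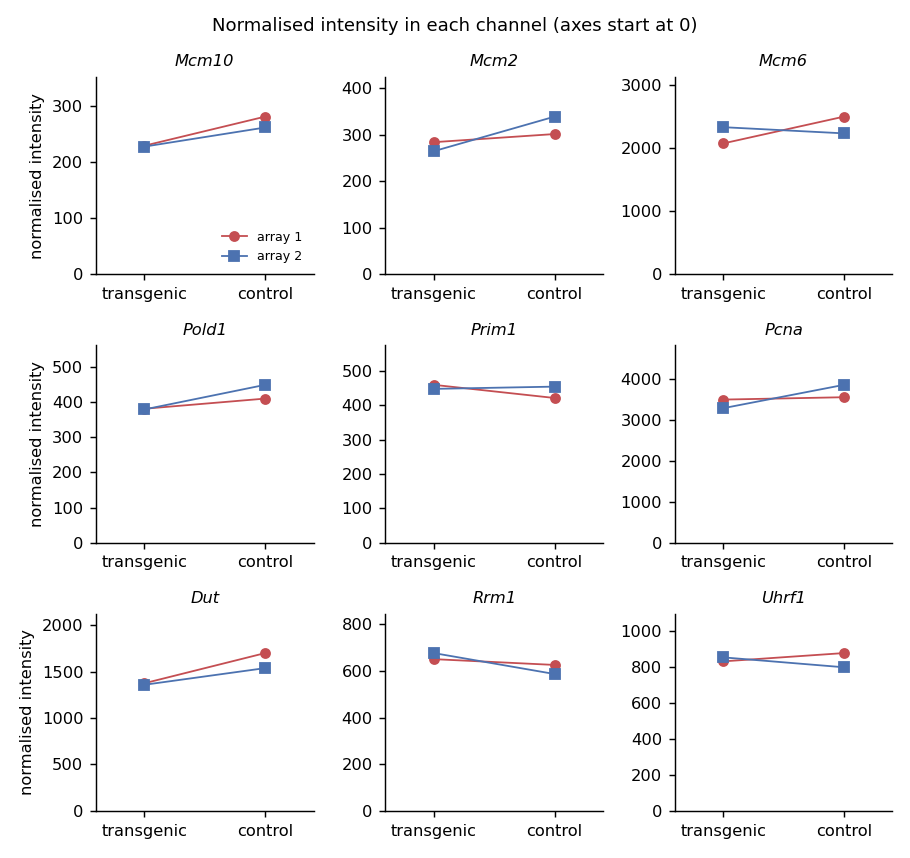
Normalised intensity of 9 genes in the transgenic pool (left of each panel) and the control pool (right), on array 1 (red circles) and array 2 (blue squares), with axes from 0. Both transgenic values of Mcm10, Mcm2, Pold1, Pcna and Dut lie below both control values, those of Rrm1 lie above both, and the pools overlap for Mcm6, Prim1 and Uhrf1. Over all 36 genes the transgenic values lay below both control values in 14 (38.9%), against 24.0% of all genes. They lay above both in 2 (5.56%), against 23.0% of all genes. Of the genes shown, Mcm10, Mcm2, Pold1 and Rrm1 were added after their values were seen.

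Of 5 measured polymerase and primase genes 2 lay below 0 on both arrays and 1 above, with a median of 0.01. Over all genes measured 29.1% lay below 0 on both arrays and 28.3% above. Pold1, the catalytic subunit of polymerase delta, read 381 and 379 in the transgenic pool on arrays 1 and 2, against 410 and 449 in the control pool. Its log2 ratio was -0.18 ± 0.10, its second probe read -0.20, and both transgenic values lay below both control values (probe on mm8 at chr7:44400893-44401261). Pole, the catalytic subunit of polymerase epsilon, was at -0.05 ± 0.03. Prim1, the catalytic primase subunit, read 460 and 448 in the transgenic pool, against 422 and 455 in the control pool, and these ranges overlap. Prim1 was at 0.05 ± 0.10, and Pola1, the catalytic subunit of polymerase alpha, at 0.01 ± 0.14, with opposite signs on the arrays for both. Prim2, the primase regulatory subunit, was at 0.08 ± 0.01 and above 0 on both arrays. Pola2, the accessory subunit of polymerase alpha, was not measured, since its brightest probe stood well above background in just 1 of 4 channels.

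Genes of the clamp, its loader, the single-strand binding protein and fragment joining had a median of -0.07 over 9 genes. On both arrays 3 were below 0 (33.3%) and 0 above 0, against 29.1% and 28.3% of all genes. Pcna, the sliding clamp, read 3500 and 3289 in the transgenic pool on arrays 1 and 2, against 3557 and 3861 in the control pool. The Pcna log2 ratio was -0.13 ± 0.15, of which array 1 gave -0.02 and array 2 gave -0.23 (probe on mm8 at chr2:131941125-131941262). The small clamp loader subunits Rfc5, Rfc4, Rfc2 and Rfc3 were at -0.14 ± 0.06, -0.07 ± 0.16, -0.05 ± 0.16 and 0.0013 ± 0.01, and only Rfc5 was below 0 on both arrays. Fen1, the nuclease that trims Okazaki fragment flaps, was at -0.11 ± 0.14. Lig1, the ligase that seals the trimmed fragments, was at -0.09 ± 0.15, with array 2 above 0. Rpa1 and Rpa2, subunits of the single-strand binding protein, were at 0.02 ± 0.03 and 0.04 ± 0.21.

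Among nucleotide supply genes the subunits of ribonucleotide reductase, the enzyme that makes deoxynucleotides, had means of opposite sign. Rrm1, the large subunit, read 651 and 677 in the transgenic pool on arrays 1 and 2, against 626 and 587 in the control pool, and both transgenic values lay above both control values. The Rrm1 log2 ratio was 0.13 ± 0.11 (probe on mm8 at chr7:102342530-102342590). Rrm2, the small subunit, whose level limits the enzyme through the cell cycle, read 406 and 378 in the transgenic pool, against 407 and 439 in the control pool. Its log2 ratio was -0.11 ± 0.15, almost all of it from array 2. The difference between the subunits was not tested.

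Dut encodes the dUTPase that keeps uracil out of DNA. It read 1373 and 1357 in the transgenic pool on arrays 1 and 2, against 1698 and 1537 in the control pool, so the pools did not overlap. The Dut log2 ratio was -0.24 ± 0.09, its second probe read -0.15, and the brightest probe lies on mm8 at chr2:124948847-124948906. Ung, the glycosylase that removes uracil from DNA, was at -0.05 ± 0.20 with opposite signs on the arrays. Tyms, which makes thymidylate, was at 0.01 ± 0.01 and its second probe at -0.03. Tk1, the thymidine salvage kinase, was at 0.0025 ± 0.21, as array 1 gave -0.15 and array 2 gave 0.15.

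Regulators of S phase entry were near 0. Ccne1, which encodes cyclin E1, was at -0.08 ± 0.07 and below 0 on both arrays. E2f1, a transcription factor of S phase genes, was at -0.02 ± 0.16. Uhrf1, which guides maintenance methylation to newly copied DNA, read 829 and 851 in the transgenic pool on arrays 1 and 2, against 875 and 796 in the control pool. The Uhrf1 log2 ratio was 0.01 ± 0.12 and its second probe read -0.03. Ccne2, which encodes cyclin E2, was not measured: each of its 2 probes stood well above background in just 2 of 4 channels.

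Across the 36 genes the log2 ratios of array 1 and array 2 correlated with Pearson r = -0.09 and Spearman rho = -0.11, against 0.31 and 0.24 across all genes measured; genes within an array share labelling and depth of signal, and these correlations are descriptions. For 22 of the 36 the SD between arrays was larger than the size of the mean. The median SD was 0.10 and the median size of the mean 0.08, against 0.09 and 0.08 over all genes measured. The contrast of the dyes, red over green with the arrays not turned, had an SD over the 36 genes of 0.094, against an SD of 0.086 for transgenic over control. Over all genes measured these SDs were 0.102 for the dyes and 0.139 for transgenic over control. The dye contrast was larger than the transgenic over control mean, in size, for 17 of the 36. By construction these are the 17 genes with opposite signs on the arrays (47.2%), against 42.6% of all genes, so the count adds nothing to that one. The call rule applied to the dye contrast took 0 of the 36, where it took 2.08% of all genes. Of 8 genes with 2 measured probes 5 had probes of 1 sign, and the probes of a gene differed by at most 0.093.

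Of 40 other replication genes measured, 2 were called lower and 2 higher, where the rule took 2.83% and 3.68% of all genes, and the median was -0.02. The called genes were Pold3 (-0.28 ± 0.04), an accessory subunit of polymerase delta, E2f2 (-0.27 ± 0.17), an E2F factor, Rfc1 (0.28 ± 0.08), the large clamp loader subunit, and Pole3 (0.27 ± 0.07), an accessory subunit of polymerase epsilon. The direction of Pold3 depends on the probe, since its other 2 measured probes read 0.14 and 0.22, and the other probe of Pole3 read 0.04. Of 32 other nucleotide synthesis genes 1 was called lower and 0 higher, with a median of -0.07. Below 0 on both arrays were 18 of 32 (56.2%), against 29.1% of all genes. The called gene was Ctps, the CTP synthase, at -0.27 ± 0.36, with -0.01 on array 1 and -0.52 on array 2. Gart and Impdh2, enzymes of purine synthesis, were at -0.24 ± 0.12 and -0.21 ± 0.19. Of 16 mitosis genes 2 were called lower, the kinase genes Plk1 (-0.38 ± 0.09) and Cdk1 (-0.29 ± 0.08), with a median of -0.08, and Aurka was at -0.24 ± 0.00. The plot by list places the replication genes beside these lists and the cell type markers.

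**Figure D5:**
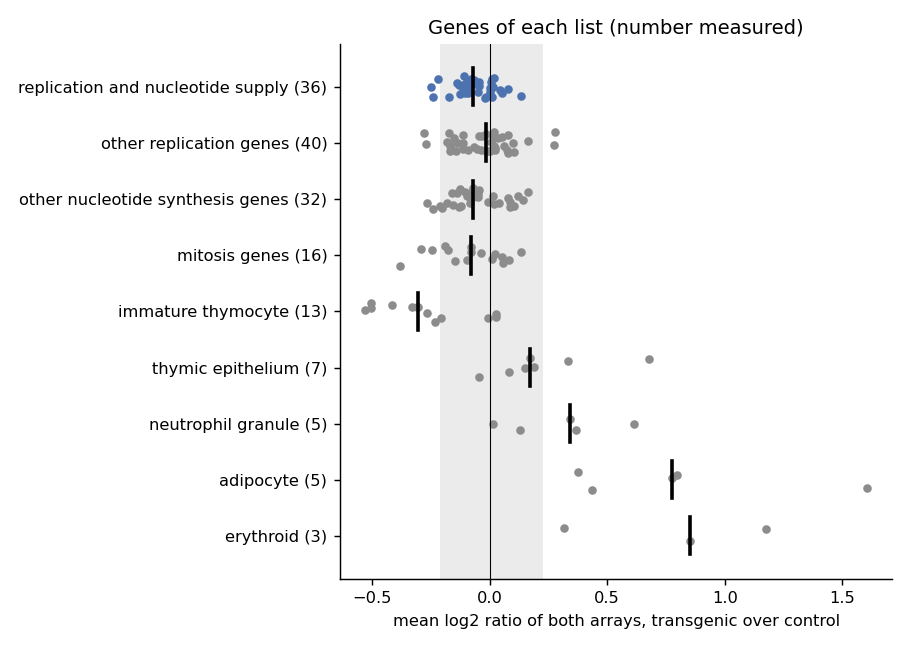
Mean log2 ratio of transgenic over control for the measured genes of 9 lists, with the number of genes in brackets, the list median as a black bar and the middle 90% of all genes measured shaded (-0.21 to 0.22). The replication and nucleotide supply genes (blue, median -0.07) lie near the wider replication, nucleotide and mitosis lists, and the immature thymocyte markers (median -0.30) lie lower.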

How the data were processed

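Thymus RNA of Pla2g10-transgenic and control mice, 1 pool of 4 mice per genotype, was compared on 2 two-colour arrays. The design text gives 1 pool per genotype, so the 2 arrays, numbered as replicates in the labels, were taken as a technical dye swap of these pools, with no test across animals. Per the file headers, Feature Extraction 9.5.1.1 wrote the deposited mean and local background intensity of each spot. The deposited log10 ratios are of red over green processed signal, and the authors' series table equals them within 5e-10. Labelling used 500 ng of RNA, per the labels.

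Background was corrected with normexp (offset 50, median local background), and log2 ratios computed from the deposited mean signals were normalised by loess within each array (limma 3.58.1, R 4.3.3), with control spots at weight 0 and outlier spots left out (46 and 37). Array 2 was turned. The offset shrinks ratios of dim probes. Printed intensities are after loess and Aquantile scaling. Transcript spots well above background made up 34.1% and 28.5% in the transgenic channel, and 29% and 33.2% in the control channel, on arrays 1 and 2, and the number of arrays limits the precision. Of 41174 probes 12235 were measured, and a RefSeq table (GRCm38.p6) named genes by accession, symbol or older symbol. Filter, offset, background, centring, probe and array alternatives were tried. The steps were tested on simulated dye-swapped arrays, with known changes larger than those of the replication genes and set in bright spots only. That test does not cover small differences or dim probes. Probe positions are on mm8, per the file headers; exons and UTRs were not looked up for want of an annotation of it. No sequences of proteins were used, so the planned protein motifs were not searched.

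The genes and lists were chosen with earlier results of these data known. All genes of the set with a probe are named, and from each wider list the called genes and the 3 with the largest log2 ratio in size, with some of the cell type markers; intensities are given for the brightest gene of each function, and those of Mcm10, Mcm2, Cdc45, Pold1, Rrm1 and Rrm2 were added after their values were seen. A list of 5 B cell markers had 1 measured gene, at 0.13, and 6 macrophage markers had a median of -0.02; 7 thymic epithelial markers had a median of 0.17, with 2 called higher, Krt5 (0.68) and Krt14 (0.33). Of the cell type markers 1 is not reported here.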

Additional observations from a re-analysis of the deposited data

How the results depend on the processing

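The median over the replication and nucleotide supply genes was below 0 under every alternative run. No gene of the set was called higher under any of them, while the share of all genes called higher reached 12.2% with the scanner software's log ratios. With median centring in place of loess the median was -0.1129, but only 1 gene was below 0 on both arrays and 0 above 0, against 4.46% and 2.08% of all genes, whose median was -0.0349; the arrays then correlated at r = -0.45 over all genes measured, and the cause was not tested. The count called lower, 0 as reported, was 3 with an offset of 0 (Mcm10, Mcm2 and Cdc45; 9.89% of all genes), 1 without background correction (Mcm10; 3.48%), and 4 with either the scanner software's or the series table's log ratios (Mcm10, Mcm2, Dut and Cdc6; 11.3% each); the offset of 50 shrinks ratios by construction. With those log ratios 5 genes, not 3, were above 0 on both arrays (13.9%), against 29.3% of all genes. On a single array between 2 and 4 genes were called lower (without replicate 1 Mcm2 and Mcm4, without replicate 2 Mcm10, Dut, Cdc45 and Mcm6), against 5.14% of all genes without replicate 1 and 7.19% without replicate 2. Below 0 were 24 without replicate 1, against 53.6% of all genes, and 25 without replicate 2, against 47.2%. Above 0 were 12 and 11, against 46.4% and 52.8% of all genes. The median was -0.0364 without replicate 1 and -0.0701 without replicate 2, against -0.0122 and 0.0119 over all genes. A rule of at least 0.5 on each array called 0 of the 36, against 0.0532% of all genes lower and 0.287% higher. Taking each array as a separate measurement, limma's moderated test called 0 of the 36 at an adjusted p under 0.05 (smallest adjusted p = 0.232), against 93 genes higher and 58 lower over all 9397, and at an unadjusted p under 0.05 it took 3 of the 36 (Dut, Mcm10 and Mcm2) and 12.4% of all genes. Over 6 settings that use both arrays and the same probe filter, 25 of the 36 means stayed below 0, 2 above 0 (Rrm1 and Prim2), and the others changed sign. Averaging the probes of a gene turned Pold3 to 0.0259. Array and slide could not serve as a block, since each ratio lies within 1 array.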
